A study of Mus musculus with 3 samples.

Results

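Of the 24063 genes in the count table, 10 encode the FGF, Nodal and BMP signals of the early epiblast or respond to them, and their expression was compared between blastocysts of the NOD and B6 strains. These are the ligand gene Fgf4, the receptor genes Fgfr1 and Fgfr2, the ERK target genes Spry4, Dusp6 and Etv5, the TGF-beta family ligand genes Nodal, Gdf3 and Bmp4, and the co-receptor gene Tdgf1. They were chosen by symbol for their role, with earlier results of these data known, and all 10 were found. The samples were 1 untreated B6 (C57BL/6) blastocyst and 2 untreated NOD blastocysts, called NOD 1 and NOD 2. NOD is the non-obese diabetic strain, prone to autoimmune diabetes, and B6 is a strain that is not. The sources used here give neither the age nor the sex of the embryos. The labels name blastocysts without saying whether they were whole, and the study's methods describe inner cell masses (ICMs) freed by immunosurgery.

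In the blastocyst, cells of the epiblast secrete FGF4, which acts through the receptors FGFR1 and FGFR2 on the ERK kinases and directs neighbouring ICM cells towards primitive endoderm. FGF4 also sustains the trophectoderm next to the ICM. ERK signalling switches on its own inhibitors, among them Sprouty proteins and the phosphatase DUSP6, so that the RNA of these genes is often read as a measure of pathway activity. Nodal and its relative GDF3 signal through activin receptors with the help of the co-receptor Cripto, the product of Tdgf1, and BMP4 signals through a separate set of receptors to SMAD1 and SMAD5.

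The B6 library held 12505685 counts on genes, and the totals were 2.71 and 2.89 times as high in NOD 1 and NOD 2. The levels below are in CPM, counts per 1000000 after scaling by edgeR's TMM factors, and a count of 0 allows up to 3 counts, or 0.220 CPM in B6 against 0.0908 in NOD 1 and 0.0882 in NOD 2. These limits, and the exact (Clopper-Pearson) 95% intervals given below, cover counting error only. A gene was called when edgeR's quasi-likelihood test gave an adjusted p under 0.05 over the 14456 genes tested and a change of at least 2-fold. Since B6 has 1 library, a difference between strains and a difference between single embryos cannot be told apart. The spread is that between the 2 NOD libraries, and B6 is assumed to vary alike. In such bulk samples, fewer cells of a type and less RNA per cell cannot be told apart either. Of 10 trophectoderm markers, 9 had counts in all libraries, with Krt18 highest at 1464 CPM in B6 against 812 in NOD 1 and 852 in NOD 2. The lowest, Elf5, had 0, 0.212 and 0.294 CPM.

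All 10 genes passed the filter on low counts and were tested, and 3 of them were called, 2 as higher and 1 as lower in NOD. Among all genes tested, 17.7% were called, 10.3% as higher and 7.39% as lower. The 3 called genes belong to the Nodal branch. Tdgf1 and Gdf3 were up-regulated in NOD, and Nodal, with 87 counts in B6, had no count in either NOD library, so that its call, the 1 lower call, is against counts of 0 in a gene that passed the filter through B6 alone. In the FGF branch the main edgeR test called no gene. Fgfr1, Dusp6 and Spry4 had lower levels in both NOD libraries than in B6, and Fgf4 a higher one. Fgfr1 lay just outside the threshold (adjusted p = 0.0509) and was called in 5 of 8 alternatives, and Dusp6 in 2. Other settings of edgeR were among these alternatives for both genes. DESeq2 called 5 of the 10 genes, where it called 2463 genes as higher and 1936 as lower among 12954 with an adjusted p. A difference between the branches was not tested. In total, 4 of the 10 genes lay above B6 in both NOD libraries (45.3% of all genes tested) and 4 lay below in both (39.4%), with Bmp4 among the former although its level in NOD 1 was under the limit of 3 counts in B6. These shares are near those of all genes, and the median log2 fold change of the 10 genes, 0.20, was close to that of all genes, 0.26.

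**Figure D1:**
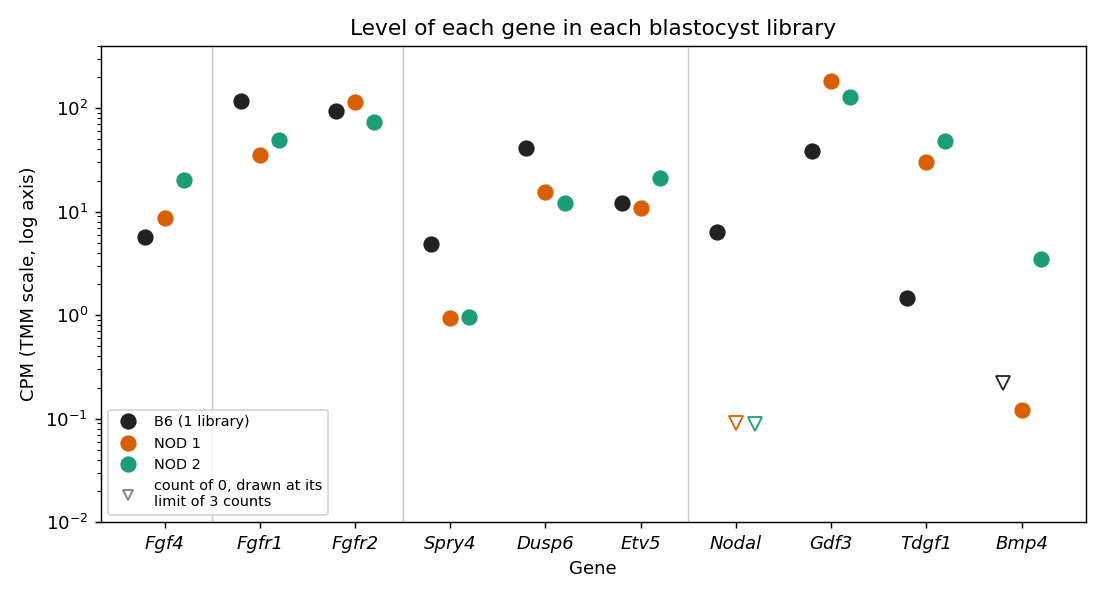
Level of each of the 10 genes in CPM (log axis) in the B6 library, NOD 1 and NOD 2, with open triangles for counts of 0, drawn at the limit of 3 counts. Tdgf1 and Gdf3 lay above B6 in both NOD libraries, Nodal was at 0 in both, and NOD 1 and NOD 2 differed most for Bmp4.

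The upstream sequences of Nodal and Tdgf1 are shown because these genes changed most, and in opposite directions, among the members that were called. Each is the 250 bases before the annotated start, 5′ to 3′ on the strand of the gene, from RefSeq on GRCm38.p6 (the mm10 build). They lie at chr10:61417722-61417971 (plus strand) for Nodal and at chr9:110946159-110946408 (minus strand) for Tdgf1. Capitals mark matches to any of 6 motifs searched on both strands.
Nodal: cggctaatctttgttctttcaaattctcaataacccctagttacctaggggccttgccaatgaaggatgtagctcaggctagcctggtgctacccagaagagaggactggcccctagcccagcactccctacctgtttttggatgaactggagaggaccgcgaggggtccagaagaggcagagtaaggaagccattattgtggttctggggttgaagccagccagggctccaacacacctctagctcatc
Tdgf1: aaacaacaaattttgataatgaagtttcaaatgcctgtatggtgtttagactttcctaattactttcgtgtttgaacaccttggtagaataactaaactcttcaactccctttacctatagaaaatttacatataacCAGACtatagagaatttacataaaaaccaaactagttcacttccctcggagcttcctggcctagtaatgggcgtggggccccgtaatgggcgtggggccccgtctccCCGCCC
The motifs were CCGGAAG for ETS factors, CAGAC for SMAD proteins, AATNCACA for FOXH1, the octamer ATGCAAAT, the TATA box TATAAA and the GC box GGGCGG. Among 32851 such windows, the share with a match was 6.91% for ETS, 42.2% for SMAD, 3.18% for FOXH1, 1.60% for the octamer, 12.4% for TATA and 32.7% for the GC box. The Nodal window held none of these letters, and the Tdgf1 window held 1 SMAD and 1 GC box match. The GC content was 53.2% with 3 CpG dinucleotides for Nodal and 42.0% with 7 for Tdgf1, where the median window held 6. Windows were found for 7 of the 10 genes by symbol.

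Nodal (NM_013611, chromosome 10, 61417972 to 61425337 of mm10, plus strand, 3 exons) encodes the ligand that keeps epiblast cells from differentiating and later patterns the embryo. It had 87 counts in B6 against 0 in NOD 1 and 0 in NOD 2, which is 6.39 CPM in B6. Its level was at least 70.3-fold lower in NOD 1 and at least 72.4-fold lower in NOD 2, taking 3 counts per library as the limit. The call as lower in NOD had an edgeR adjusted p = 0.0350. The fit, at a log2 fold change of -10.43 (SE 1.60), depends on the prior count and is no bound. The gene passed the filter through the B6 library alone. Of the 801 genes with 70 to 110 counts in B6, 15 (1.87%) had 0 counts in both NOD libraries. None of the 50-base words of its transcript occurs in the transcripts of another gene, and no other gene's exons overlap its own.

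Gdf3 (NM_008108, chromosome 6, 122605403 to 122610071, minus strand, 2 exons) encodes a relative of Nodal that is expressed in pluripotent cells. Its counts were 521 in B6 against 6119 in NOD 1 and 4418 in NOD 2, or 38.2, 185.1 and 129.8 CPM. Both NOD libraries lay above B6. The level in NOD was 157.5 ± 39.1 CPM (SD, n = 2), a 4.12-fold increase with a log2 fold change of 2.04 (SE 0.37, edgeR adjusted p = 0.0339). With NOD 1 alone against B6 the log2 fold change was 2.28 and with NOD 2 alone 1.76. A small share of its 50-base words also occurs in many other genes, and the part of such reads was not tested.

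Tdgf1 (NM_011562, chromosome 9, 110939608 to 110946158, minus strand, 6 exons) encodes Cripto, the membrane-anchored co-receptor through which Nodal and GDF3 reach their receptors. It had 20 counts in B6 against 1003 in NOD 1 and 1655 in NOD 2. These correspond to 1.47 CPM in B6 against 30.3 and 48.6 CPM in NOD, so that the lower NOD library was 20.7 times as high as B6. The mean in NOD was 39.5 ± 12.9 CPM (SD, n = 2), and the log2 fold change was 4.75 (SE 0.63, edgeR adjusted p = 0.0231). With the NOD counts pooled, NOD stood at 27.0 times B6 (counting interval 17.4 to 44.3). Of 1256 tested genes with a NOD mean from 30 to 50 CPM, 26 (2.07%) had 20 counts or fewer in B6. Of the 50-base words of the transcript, 12.5% also occur in the pseudogene Tdgf1-ps1, which has no row in the table, and the part of such reads in the result was not tested.

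Nodal, Gdf3 and Tdgf1 lost their calls in limma-voom (adjusted p = 0.159, 0.0959 and 0.146) and when genes of low count were kept in edgeR (adjusted p = 0.0799, 0.0745 and 0.0649). In both settings no gene of the whole table was called. Over the alternatives tried, the adjusted p ran from 1.03e-04 to 0.159 for Nodal, from 2.03e-06 to 0.0959 for Gdf3 and from 2.64e-11 to 0.146 for Tdgf1, with the direction kept in each.

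Bmp4 (NM_007554, chromosome 14, 46383520 to 46390599, minus strand) encodes the BMP ligand of the early epiblast and of the adjoining extra-embryonic ectoderm. It had 0 counts in B6 against 4 in NOD 1 and 118 in NOD 2. The level in NOD 2, 3.47 CPM, was at least 15.8-fold higher than B6, whereas the 0.121 CPM of NOD 1 lay below the B6 limit of 0.220 CPM. The gene passed the filter on low counts through NOD alone. Its adjusted p was 0.167 in edgeR, and the NOD libraries differed 28.7-fold. Of the 551 genes with 100 to 140 counts in NOD 2, 34 (6.17%) had 4 counts or fewer in NOD 1. Of its 50-base words, 2.43% occur in other genes, and its exons overlap the antisense gene Gm15217, which held 3 counts in NOD 2 and none in the other libraries.

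Fgf4 (NM_010202, chromosome 7, 144861386 to 144865243, plus strand, 3 exons) encodes the FGF ligand that the epiblast secretes. It had 77 counts in B6 against 288 in NOD 1 and 695 in NOD 2, or 5.65, 8.71 and 20.4 CPM. Both NOD libraries were above B6, but they differed 2.34-fold from each other. The log2 fold change of 1.37 (SE 0.75) did not pass (edgeR adjusted p = 0.234) and was 0.62 with NOD 1 alone and 1.85 with NOD 2 alone.

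Fgfr1 and Fgfr2 encode the receptors for FGF4 in the blastocyst, of which FGFR1 is present throughout the ICM and FGFR2 marks primitive endoderm and trophectoderm. Fgfr1 (NM_001079908, chromosome 8, 25518759 to 25575718) had 1618 counts in B6 against 1179 in NOD 1 and 1679 in NOD 2, that is 118.8, 35.7 and 49.3 CPM. Both NOD libraries lay below B6, with 42.5 ± 9.67 CPM (SD, n = 2) and a log2 fold change of -1.48 (SE 0.35). This was just outside the threshold, with an edgeR adjusted p = 0.0509, and 5 of 8 alternatives placed it inside (adjusted p from 0.00197 to 0.0959 over all of them). Fgfr2 (NM_010207, chromosome 7, 130162451 to 130266808) had 1276 counts in B6 against 3806 in NOD 1 and 2507 in NOD 2, or 93.7, 115.2 and 73.7 CPM. The B6 value lay between the NOD values, and the log2 fold change was 0.01 (SE 0.38, edgeR adjusted p = 0.983).

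The exons of Fgfr1 overlap the antisense gene Gm16159, whose reads could not be told apart since counting ignored strand. The receptors, a pair chosen after the values were seen, were also compared per length. In FPKM, counts per kilobase of the listed gene length and per 1000000 counts, Fgfr1 was 1.31 times Fgfr2 in B6 (counting interval 1.22 to 1.41). The ratio was 0.321 in NOD 1 (0.300 to 0.343) and 0.694 in NOD 2 (0.652 to 0.738). The B6 order depends on the transcript lengths used: with those of the matched GENCODE transcripts, an alternative added after the data were seen, the ratio was 1.04 in B6 (0.967 to 1.12), so that the receptors did not differ there beyond counting error, and 0.254 and 0.550 in NOD 1 and NOD 2. This ratio was described without a test.

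**Figure D2:**
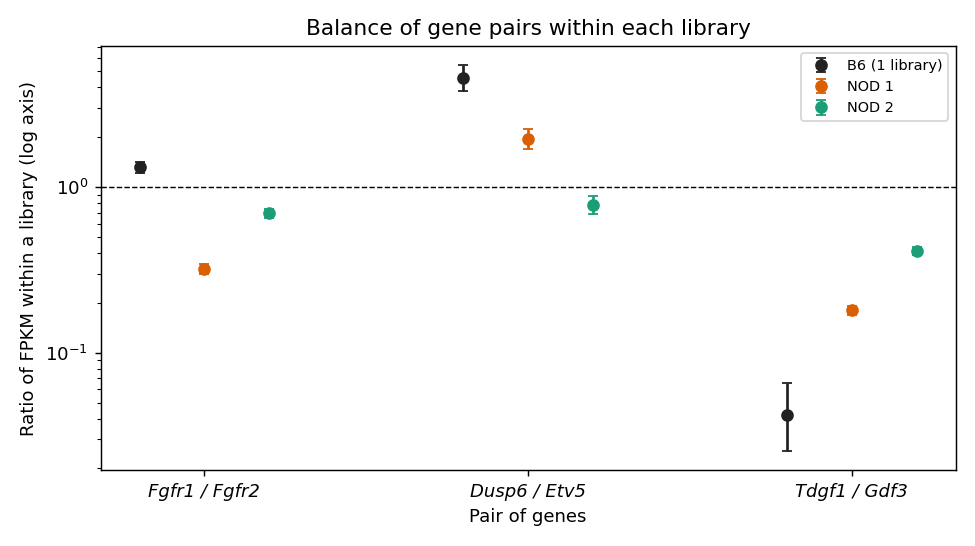
Ratio of FPKM, with the listed gene lengths, between the genes of 3 pairs within each library (log axis), with exact 95% counting intervals as bars. Fgfr1 exceeded Fgfr2 in B6 only, which was lost with GENCODE lengths, Dusp6 exceeded Etv5 in B6 and NOD 1 but not in NOD 2, and Tdgf1 stayed below Gdf3 in all libraries.

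Of the 3 ERK target genes, none was called, and Dusp6 and Spry4 lay below B6 in both NOD libraries while Etv5 did not. Dusp6 (NM_026268, chromosome 10, 99263231 to 99267489), which encodes the phosphatase that inactivates ERK, had 557 counts in B6 against 509 in NOD 1 and 413 in NOD 2. These are 40.9, 15.4 and 12.1 CPM, with both NOD libraries below B6 and a spread between them, 13.8 ± 2.31 CPM (SD, n = 2), that was small beside the difference. The log2 fold change was -1.57 (SE 0.41, edgeR adjusted p = 0.0600). It passed in 2 of 8 alternatives, DESeq2 (adjusted p = 0.0204) and edgeR on genes with at least 10 counts in every library (adjusted p = 0.0157).

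Spry4 (NM_011898, chromosome 18, 38586265 to 38601268), a Sprouty gene whose product restrains signalling from FGF receptors, had 66 counts in B6 against 31 in NOD 1 and 33 in NOD 2. These are 4.84, 0.938 and 0.970 CPM, with both NOD libraries below B6 and close to each other. With the NOD counts pooled, NOD stood at 0.197 times B6 (counting interval 0.137 to 0.282). The log2 fold change of -2.34 (SE 0.96) did not pass (edgeR adjusted p = 0.143), nor did it in any of the 8 alternatives.

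Etv5 (NM_023794, chromosome 16, 22381313 to 22439570), which encodes an ETS transcription factor induced by FGF signals, had 167 counts in B6 against 356 in NOD 1 and 721 in NOD 2. The B6 level of 12.3 CPM lay between the 10.8 CPM of NOD 1 and the 21.2 CPM of NOD 2 (log2 fold change 0.38, SE 0.61, edgeR adjusted p = 0.660). Of its 50-base words, 26.8% also occur in Gm4798, which has no row in the table. Per length, Dusp6 was 4.55 times Etv5 in B6 (counting interval 3.82 to 5.44), 1.95 times in NOD 1 (1.70 to 2.24) and 0.781 times in NOD 2 (0.690 to 0.883).

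**Figure D3:**
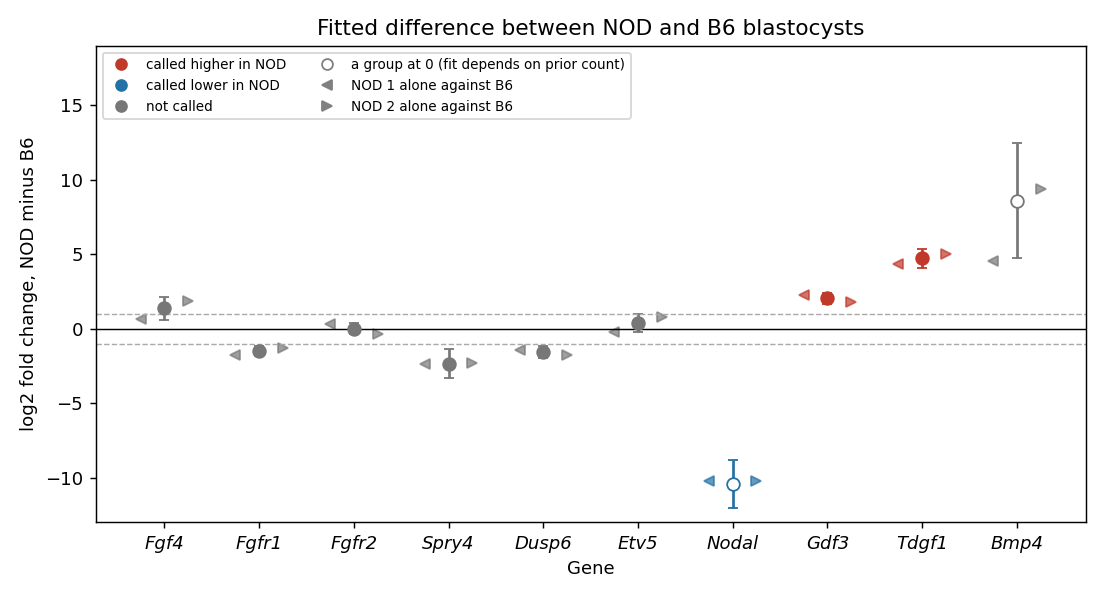
Fitted log2 fold change of each gene, NOD minus B6, with 1 standard error as bars and with triangles for NOD 1 alone and NOD 2 alone against B6 (dashed lines mark 2-fold). Gdf3 and Tdgf1 were called higher and Nodal lower, and open circles mark Nodal and Bmp4, whose fits are against a group at 0 or depend on the prior count.

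The order of the 10 genes by FPKM differed between the libraries. In B6, Fgfr1 was highest at 25.9 FPKM, followed by Gdf3 at 19.8, Fgfr2 at 19.7 and Dusp6 at 16.0. Gdf3 and Fgfr2 did not differ there beyond counting error (interval of their ratio 0.905 to 1.11), although with GENCODE lengths Gdf3 was 0.638 times Fgfr2 (0.576 to 0.708). Etv5 at 3.51 and Nodal at 3.33 FPKM did not differ beyond counting error either (ratio 1.05, interval 0.808 to 1.38). Fgf4 at 2.04, Spry4 at 1.15, Tdgf1 at 0.833 and Bmp4 at 0 FPKM came last.

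In both NOD libraries Gdf3 was highest, with 85.8 FPKM in NOD 1 and 58.0 in NOD 2, and Nodal was last. Gdf3 stood above 90.0% and 86.5% of the genes counted in NOD 1 and NOD 2, against 69.4% in B6. Tdgf1 moved from 22.2% in B6 to 69.4% in NOD 1 and 76.6% in NOD 2. The order of Tdgf1 (15.4 and 23.8 FPKM) and Fgfr2 (21.7 and 13.4) was exchanged between the NOD libraries, as was that of Dusp6 (5.38 and 4.09) with Fgf4 (2.81 and 6.35) and with Etv5 (2.76 and 5.24), so that these pairs did not differ beyond the spread between libraries. Fgf4 was above Etv5 in both, by a ratio of 1.02 in NOD 1 (counting interval 0.869 to 1.19) and 1.21 in NOD 2 (1.09 to 1.35). Tdgf1 per length was 0.0421 times Gdf3 in B6 (counting interval 0.0255 to 0.0657), 0.180 times in NOD 1 (0.168 to 0.192) and 0.411 times in NOD 2 (0.388 to 0.435).

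Genes of the same pathways other than these 10 were taken from 5 lists written by hand, and 81 of the 98 genes listed were tested. On the list of ERK feedback and target genes, 2 of 14 tested genes were called, both as lower in NOD, where 7.39% of all genes were called lower and 17.7% in either direction. The median log2 fold change was -1.65, against 0.26 over all genes. Of the 14, 8 lay below B6 in both NOD libraries (39.4% of all genes) and 2 above (45.3%), and with so few genes nothing particular to the list was read from these counts. Spry2, a second Sprouty gene, had 36.8 CPM in B6 and 7.72 and 7.67 in NOD 1 and NOD 2 (log2 fold change -2.26, SE 0.42, edgeR adjusted p = 0.0351). Phlda1, which encodes a pleckstrin-homology protein induced by growth factors, fell from 110.1 CPM to 29.5 and 25.8 (log2 fold change -1.99, adjusted p = 0.0290). Like the calls in the Nodal branch, both were lost in limma-voom (adjusted p = 0.0785 for Spry2 and 0.0674 for Phlda1) and with genes of low count kept (0.0741 and 0.0677).

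Others on that list were not called. Dusp4, which encodes a nuclear ERK phosphatase, had 52.3 CPM in B6 against 18.7 and 17.3 in NOD (edgeR adjusted p = 0.0509), and was called in 5 of 8 alternatives. The cyclin gene Ccnd1 had 91.2 CPM in B6 against 8.71 in NOD 1 and 44.8 in NOD 2 (adjusted p = 0.212, called in 2 of 8 alternatives), and the transcription factor gene Myc had 8.59, 7.35 and 26.9 CPM (adjusted p = 0.432). Ccnd1 was below B6 in both NOD libraries with a wide spread, while the B6 level of Myc lay between those of NOD.

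Among ligands and receptors of the FGF family, 1 of 9 tested genes was called, as higher (10.3% of all genes). Fgf3, an FGF ligand gene on chromosome 7, had 0 counts in B6 against 76 in NOD 1 and 168 in NOD 2, at least 10.4-fold above the B6 limit in NOD 1 and at least 22.4-fold in NOD 2 (edgeR adjusted p = 0.0468). It passed the filter on low counts through NOD alone and was tested against a count of 0. It was not called in 4 alternatives, among them scaling by total counts only (adjusted p = 0.0541). Fgf3 had no value where at least 10 counts in every library were required. Klb, which encodes the FGF co-receptor beta-Klotho, had 2.57 CPM in B6 against 11.9 and 24.4 in NOD (adjusted p = 0.0624). Fgfrl1, a receptor without a kinase, had 1.39 CPM in B6 against 7.78 and 9.85 in NOD (adjusted p = 0.0728), and Fgfr3 had 8.29, 7.32 and 10.6 CPM (adjusted p = 0.898). Klb and Fgfrl1 were each called in 2 of 8 alternatives. The median log2 fold change of the list was 2.82, or 2.57 when genes without a count in B6 took their bound, against 0.26 over all genes. Of the 9, 6 lay above B6 in both NOD libraries (45.3% of all genes) and 0 below (39.4%). Among the 9, 3 had no count in B6 and passed the filter through NOD alone.

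In the RAS-ERK cascade, all 21 genes were tested, with 2 called as higher (10.3% of all genes), 2 as lower (7.39%) and a median of -0.25. Araf, a RAF kinase gene, rose from 2.94 CPM in B6 (40 counts) to 51.7 and 119 in NOD (log2 fold change 4.86, edgeR adjusted p = 0.0277). Map2k2, which encodes the ERK kinase MEK2, fell from 323 CPM to 108 and 116 (log2 fold change -1.53, adjusted p = 0.0257). Frs3, an adaptor of FGF receptors whose span overlaps Frs3os, fell from 25.3 CPM to 1.54 and 2.06 (log2 fold change -3.81, adjusted p = 0.0254). Among the genes of highest mean level that were not called were Hras (285, 188 and 165 CPM, edgeR adjusted p = 0.101) and Nras (196, 211 and 199 CPM, adjusted p = 0.858).

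Of 19 tested genes of the Nodal and activin pathway, 2 were called, both as lower (7.39% of all genes), and the median was 0.00. Furin, the convertase that cleaves the Nodal precursor, fell from 49.0 CPM in B6 to 8.90 and 5.61 in NOD (log2 fold change -2.76, SE 0.47, edgeR adjusted p = 0.0303). Gdf1, which encodes another partner of Nodal and whose span overlaps Cers1 and Upf1, fell from 11.8 CPM to 0.454 and 0.647 (log2 fold change -4.41, adjusted p = 0.0329). The Nodal target genes Lefty1 and Lefty2, which lie outside the rule for named genes and were chosen after their values were seen, had no count in B6. Lefty1 had 0 counts in B6 against 28 in NOD 1 and 53 in NOD 2 (adjusted p = 0.103), and Lefty2 had none in any library. The signal transducers Smad2 (87.9 CPM in B6 against 60.6 and 89.8 in NOD, adjusted p = 0.668), Smad4 (38.7 CPM in B6 and a NOD mean of 86.7, adjusted p = 0.0786, called in 2 of 8 alternatives) and the corepressor gene Tgif1 (112, 76.6 and 148 CPM, adjusted p = 0.996) had the highest mean level over the libraries among genes that were not called.

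The BMP list gave 1 call, as higher (10.3% of all genes), among 18 tested genes and a median of 0.88, with 13 genes above B6 in both NOD libraries (45.3% of all genes) and 4 below in both (39.4%). Of the 13, 4 had no count in B6 (Nog, Bmp7, Smad6 and Id4, named after their values were seen) and passed the filter through NOD alone. Nog, which encodes the secreted BMP antagonist Noggin, had 0 counts in B6 against 95 in NOD 1 and 108 in NOD 2, at least 13.1-fold above the B6 limit in NOD 1 and at least 14.4-fold in NOD 2 (edgeR adjusted p = 0.0466). Like Fgf3, it passed the filter through NOD alone and was tested against a count of 0. It was not called in 4 alternatives, including total counts only (adjusted p = 0.0536), and had no value where at least 10 counts in every library were required. Among the genes of highest mean level that were not called, the BMP target Id2 had 312 CPM in B6 against 576 and 427 in NOD (adjusted p = 0.137), the receptor gene Bmpr1a had 78.8, 87.2 and 84.8 CPM (adjusted p = 0.768) and Bambi, which encodes a pseudoreceptor, had 23.2, 68.8 and 64.9 CPM (adjusted p = 0.0517, called in 3 of 8 alternatives). The Id genes did not share a direction. Id1 (1.69 CPM in B6, 0.212 and 0.529 in NOD) and Id3 (42.1, 1.42 and 26.9 CPM), named after their values were seen, lay below B6 in both NOD libraries. Neither was called.

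**Figure D4:**
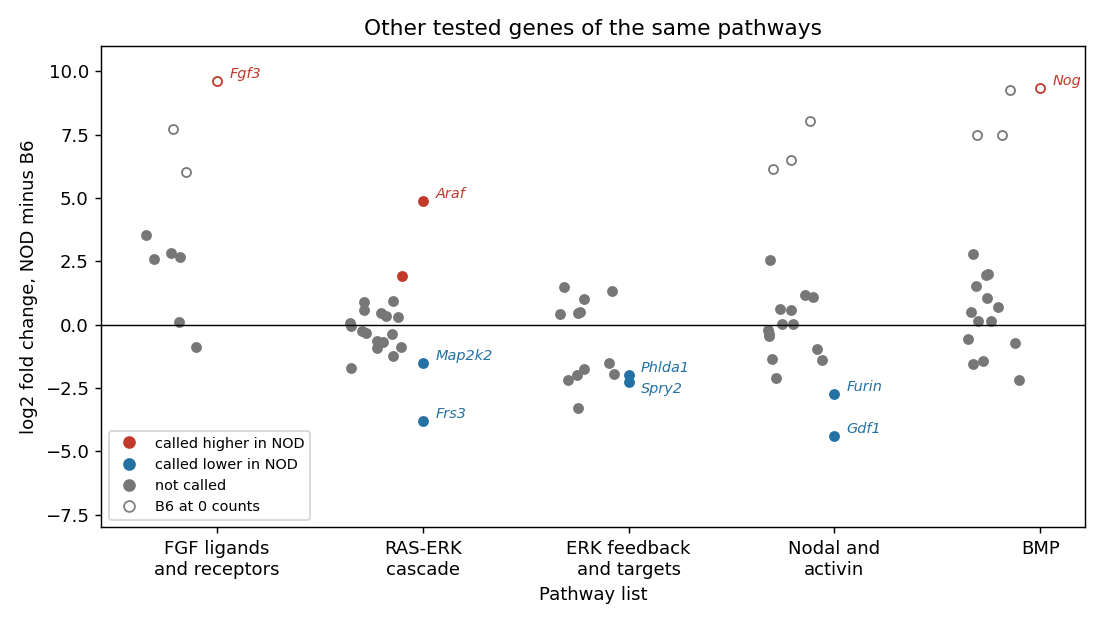
Fitted log2 fold change, NOD minus B6, of the 81 tested genes on the 5 pathway lists, 1 point per gene, with the called genes given in the text named and open points for genes at 0 counts in B6. Spry2 and Phlda1 on the ERK target list and Furin and Gdf1 on the Nodal list were called lower in NOD. The main edgeR test called no other gene of those lists, and edgeR on genes with at least 10 counts in every library called more. DESeq2 called 4 and 6 genes of them, where it called 2463 genes as higher and 1936 as lower among 12954 with an adjusted p.

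Markers of the tissues that express these genes were compared as sums. The 10 epiblast and ICM markers summed to 1130 CPM in B6 against 955 in NOD 1 and 1164 in NOD 2, with 5 of the 10 above B6 in both NOD libraries and 5 below. Single genes carry such sums, and without Tfcp2l1, the marker of highest mean level, the NOD sums were 1.22 and 1.73 times that of B6. The 8 primitive endoderm markers summed to 808, 792 and 1008 CPM, and without Dab2 to 0.322 and 0.420 times the B6 sum in NOD 1 and NOD 2, with 3 of 7 tested genes above B6 in both and 2 below. The 10 trophectoderm markers summed to 3087 CPM in B6 and to 0.580 and 0.537 times that in NOD 1 and NOD 2. Of the 9 tested, 7 lay below B6 in both and 2 (Krt7 and Hand1) above, and Elf5 was at 0 in B6. The 8 oocyte and cumulus markers summed to 31.6 CPM in B6 against 10.8 in NOD 1 and 6.49 in NOD 2, with Has2 and Ptx3 at 0 in all libraries. Of the 5 tested, 3 lay below B6 in both NOD libraries and 1 above. Leukocyte markers were near 0, with the sum of all 7 between 0.294 and 1.03 CPM and Ptprc, Lyz2, Fcer1g and Cd79a at 0 throughout. The trophectoderm and oocyte sums, and the primitive endoderm sum without Dab2, moved in the same direction as Fgfr1, Dusp6, Spry4 and Nodal. The part of these tissues in the results was not tested.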

How the data were processed

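Low-input RNA-Seq of 3 untreated mouse blastocysts, 1 B6 and 2 NOD, was analysed. Per the file headers, the deposited values are raw read counts per gene, which the authors made by aligning single-end reads of 50 bases from cDNA amplified with 19 cycles of PCR to mm10, the genome of B6, with STAR (2.2.0c in the submitters' processing notes) and counting exons of RefSeq genes on both strands with HOMER, 1 transcript per gene. How reads with several alignments were treated is not given in the sources used here. The gene lengths deposited with the counts were used for FPKM. Groups came from the labels. Nothing in the labels says whether the NOD embryos shared a litter, so p-values measure only the spread between these libraries.

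The quasi-likelihood test of edgeR 4.0.16 (R 4.3.3) was run on 14456 genes kept by filterByExpr (minimum count 10) with TMM factors, trended dispersion, 1 residual degree of freedom and Benjamini-Hochberg adjustment. Standard errors are the log2 fold change over the square root of the F statistic, and the prior count was 0.125. The smallest p that an exact permutation test can reach with 3 libraries is 0.333. Alternatives were other scalings and filters, GENCODE transcript lengths and marker sums without the gene of highest mean level (both added after the data were seen), robust dispersion, DESeq2 1.42.0, limma-voom (limma 3.58.1) and 1 NOD library at a time. Shared 50-base words and exon overlaps were taken from GENCODE M21, with Python 3.11.15. Named genes were the 10 members, the called genes of each pathway list (at most 6) with the 3 most abundant others, and the 2 most abundant and the called genes of each marker list. Some genes that this rule names are not reported here. The members and lists were chosen with earlier results of these data known, and the pairs compared by FPKM after their values were seen.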

Additional observations from a re-analysis of the deposited data

How the results depend on the processing

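Of the 10 genes, Fgfr2 and Etv5 reversed, and neither was called. The Fgfr2 log2 fold change was -0.028 with DESeq2 size factors, -0.026 with limma-voom, -0.17 with total counts only and -0.014 in the DESeq2 test, and -0.35 with NOD 2 alone, and that of Etv5 was -0.19 with NOD 1 alone. Members called as higher in NOD stayed at 2 except for 0 with limma-voom and 0 with no filter on low counts. Members called as lower, 1 in the main analysis, were 2 (Nodal and Fgfr1) with DESeq2 size factors, total counts only or robust dispersion. With at least 10 counts in every library, where Nodal was not tested, they were 2 others than the main call, Fgfr1 and Dusp6. They were 3 in the DESeq2 test and 0 with limma-voom or no filter. Over all genes, 1483 higher and 1069 lower calls became 2463 and 1936 in the DESeq2 test and 0 and 0 with limma-voom (smallest adjusted p = 0.0501, 3924 genes at an unadjusted p under 0.05) or with no filter (0.0649 and 5568 genes). Lower calls were 701 with upper-quartile factors and 1922 with at least 10 counts in every library. On the 5 pathway lists, 4 higher and 6 lower calls became 10 and 13 in the DESeq2 test, 8 and 13 with at least 10 counts in every library and 0 and 0 with limma-voom or no filter, and the higher calls were 2 with upper-quartile factors and 2 with total counts only. The causes were not tested. Of the listed genes named, Fgfr3 (-0.076), Nras (-0.12), Bmpr1a (-0.060) and Tgif1 (-0.19) reversed with total counts only, and Tgif1 also with DESeq2 size factors (-0.034), DESeq2 (-0.020) and limma-voom (-0.070). With NOD 1 alone, Fgfr3 (-0.18), Myc (-0.22) and Tgif1 (-0.55) reversed, and with NOD 2 alone Smad2 (0.031). None of these was called. The median of all genes was 0.26 in the main analysis and 0.07 with total counts only. Ranked by CPM without length, 3 members held another rank in B6, 4 in NOD 1 and 5 in NOD 2, and with GENCODE lengths 2 did in B6 (Fgfr2 and Gdf3) and none in NOD. Nodal and Bmp4 have no value where at least 10 counts in every library were required. With 1 NOD library left out, no residual degree of freedom remained and only values were given. No paired analysis was possible because with 1 B6 library the groups share fewer than 2 replicate numbers. Among the members, the counts in B6 were lowest for Bmp4, Tdgf1 and Spry4, at 0, 20 and 66.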

Other observations

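Called genes were also found among the lineage markers used as a check. They were 2 of 10 epiblast and ICM markers and 2 of 7 tested primitive endoderm markers, where 17.7% of all genes tested were called. Of the 10 epiblast and ICM markers, Zfp42, a marker of naive pluripotent cells, rose from 61.7 CPM in B6 to 155 in NOD 1 and 221 in NOD 2 (log2 fold change 1.61, adjusted p = 0.0441 from edgeR), and Sox2, whose span overlaps Sox2ot, fell from 49.8 CPM to 5.75 and 9.61 (log2 fold change -2.70, adjusted p = 0.0327). The markers of highest mean level were not called: Tfcp2l1 (636 CPM in B6, 352 and 308 in NOD) passed on its adjusted p of 0.0474 from edgeR but changed less than 2-fold, and Nanog (118, 217 and 337 CPM) had an adjusted p of 0.0752. Under the alternatives, Tfcp2l1 was called in 1 of 8 and Nanog in 2.

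Of the 7 tested primitive endoderm markers, Gata6, a transcription factor gene of that lineage whose span overlaps 1010001N08Rik, fell from 385 CPM in B6 to 91.5 and 130 in NOD (log2 fold change -1.80, adjusted p = 0.0285 from edgeR). Pdgfra, a receptor gene of the same lineage whose span overlaps Mir7025, rose from 5.5 CPM in B6 to 23.6 and 24.6 in NOD (log2 fold change 2.13, adjusted p = 0.0488). Dab2 had the highest mean level over the libraries, with 371 CPM in B6 and 651 and 824 in NOD (adjusted p = 0.0571, called in 1 of 8 alternatives). The calls of Zfp42 and Pdgfra were lost with total counts only, upper-quartile factors, limma-voom and no filter on low counts, and those of Sox2 and Gata6 with limma-voom and no filter. In the main edgeR test, 0 of 9 tested trophectoderm markers were called, although 6 were under 0.05 before adjustment and 4 were called by DESeq2 (limma-voom 0). Of all 14456 genes tested by edgeR, 5763 were under 0.05 before adjustment. DESeq2 called 2463 genes as higher and 1936 as lower among 12954 with an adjusted p. Of 5 tested oocyte and cumulus markers, 0 were called by the main edgeR test, DESeq2 or limma-voom and 1 had an unadjusted p under 0.05. The 1 tested leukocyte marker was not called by any of these tools.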
